A study of Homo sapiens with 2 samples.

Results

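A set of 10 genes of cytokines and cytokine receptors was followed in the human lung adenocarcinoma line A549: the gp130 cytokines IL6, LIF and IL11, the IL-6 receptor genes IL6R and IL6ST, the growth factor gene CSF2 (GM-CSF), the IL-1 family ligands IL1A, IL1B and IL18, and IL32. They were chosen by name from 24766 genes with rows in both deposited transcript files, and all 10 members had rows in both. The control library (shLacZ) came from A549 carrying a hairpin that targets the bacterial gene LacZ, and the knockdown library (shPSPC1) from A549 carrying a hairpin against PSPC1, which encodes an RNA-binding protein of paraspeckles. Both were grown in medium with 10% serum and 1% antibiotic, and no stimulus is named. The number of hairpins and clones and the time after knockdown are not given in the sources used here. Each group had 1 library, so no difference has a replicate check and no p-value is given.

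IL-6, IL-11 and LIF signal through gp130, the receptor subunit encoded by IL6ST, which activates Janus kinases and the transcription factor STAT3. IL-6 and IL-11 first bind their own alpha receptors, and IL-6R also exists in a soluble form that lacks the membrane anchor. IL-1 alpha and IL-1 beta act through the IL-1 receptor and NF-kB, and IL-1 beta and IL-18 are cut to their active forms by caspase-1. GM-CSF drives the growth of myeloid cells, and the mRNAs of many of these cytokines are short-lived because of AU-rich elements in their 3' untranslated regions.

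The promoters of IL6, CSF2 and IL32 are shown because IL6 and CSF2 passed the rule of size given below and IL32 was the next lowest in the log2 ratio defined there. As a percentage of control fragments, IL1A and IL1B stood lower than IL32. The sequences are the 250 bases before a RefSeq start on GRCh38.p14, written 5' to 3' on the gene's strand, and capitals mark the motifs found. They lie at chr7:22726950-22727199 on the plus strand for IL6, chr5:132073539-132073788 on the plus strand for CSF2 and chr16:3065153-3065402 on the plus strand for the first of the IL32 starts.
IL6: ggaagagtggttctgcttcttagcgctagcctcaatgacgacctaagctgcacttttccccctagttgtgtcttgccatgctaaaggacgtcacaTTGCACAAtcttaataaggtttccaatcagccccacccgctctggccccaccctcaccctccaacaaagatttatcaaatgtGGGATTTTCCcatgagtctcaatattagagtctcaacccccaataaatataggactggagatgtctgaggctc
CSF2: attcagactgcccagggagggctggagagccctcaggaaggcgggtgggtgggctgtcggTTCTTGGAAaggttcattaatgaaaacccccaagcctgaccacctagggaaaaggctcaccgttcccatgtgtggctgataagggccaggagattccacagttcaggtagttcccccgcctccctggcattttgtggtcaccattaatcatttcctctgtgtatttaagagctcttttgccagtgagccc
IL32: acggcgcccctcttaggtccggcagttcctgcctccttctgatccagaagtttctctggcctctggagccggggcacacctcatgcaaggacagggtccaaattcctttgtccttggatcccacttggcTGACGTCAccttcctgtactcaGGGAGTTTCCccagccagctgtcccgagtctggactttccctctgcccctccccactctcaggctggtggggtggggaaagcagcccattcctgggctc
The capitals in IL6 are a C/EBP match, TTGCACAA, which begins 155 bases before the start, and an NF-kB match, GGGATTTTCC, at 73 bases. In CSF2 they are a STAT match, TTCTTGGAA, at 190 bases, and in IL32 a CRE match, TGACGTCA, at 121 bases and an NF-kB match, GGGAGTTTCC, at 99 bases.

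Both strands of the 250 bases before each start were searched for 5 motifs; 8 of the 10 genes had an entry in the RefSeq promoter table (LIF and IL18 had none). The NF-kB motif, the letters GGGATTTTCC with any base at the fifth position, was in 0.527% of 35116 promoters and, of these genes, in IL6 and IL32. The C/EBP letters TTGCNNAA were in 9.05% of promoters, and in IL6 and IL1B. The AP-1 letters TGANTCA were in 6.57% and in IL11 and IL1A, the STAT letters TTCNNNGAA were in 6.57% and in CSF2 and IL1B, and the CRE letters TGACGTCA were in 1.65% and in IL32. The IL32 matches are those before the first start, and a second IL32 window (chr16:3065534-3065783) held none of the 5 motifs. Windows were not matched to the transcripts that carry the signal. A match describes the letters only, and motifs were not searched beyond these windows.

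The 3' untranslated regions were read from GENCODE transcripts whose intron lengths are those of the deposited RefSeq transcripts. The AU-rich stretch with most ATTTA pentamers is shown for the 6 cytokines that have them, as 30 bases with the pentamers in capitals, because such elements are known to shorten the life of cytokine mRNAs.
IL6: agttaATTTAtgtaagtcatATTTAtattt
LIF: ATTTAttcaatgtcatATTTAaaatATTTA
IL11: ccagatcttATTTATTTATTTAtttcagta
CSF2: aaaatATTTATTTATTTATTTATTTAagtt
IL1A: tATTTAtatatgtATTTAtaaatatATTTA
IL1B: cgcttccctATTTATTTATTTAtttgtttg
The CSF2 stretch, 224 to 253 bases after the stop codon, holds 5 overlapping pentamers, and the IL11 and IL1B stretches hold 3 overlapping ones each. Over the whole region CSF2 had 8 pentamers, or 25.2 per kilobase, IL6 had 6 (14.1 per kilobase) and IL1B had 6 (9.84 per kilobase). IL11 had 9 (5.56 per kilobase), IL1A had 5 (4.34 per kilobase) and LIF had 7 (2.18 per kilobase), beside 2.23 per kilobase over 19102 genes. IL6ST had 23 pentamers at 3.84 per kilobase and IL6R had 6 at 1.47 per kilobase. IL18 and IL32 had none in regions of only 343 and 196 bases, and 67.4% of the genes had at least 1. The values over all genes come from the longest region of each gene. The longer nonamer TTATTTATT was in IL11 (6 times), CSF2 (3 times), LIF and IL1B (2 times each), and in 8.16% of all genes.

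Levels are in FPKM, the fragments per kilobase of transcript relative to all mapped fragments of a library, summed over the RefSeq transcripts of a gene and the stranded assembled transcripts that share an intron with it. Each ± value is the half-width of the 95% interval given by the deposited bounds, which covers error within 1 library. The depth implied by these intervals was 56200000 fragments in the control and 57100000 with shPSPC1. A log2 ratio is knockdown over control with a pseudocount of 1 FPKM, so it understates the change of low genes. A second measure turned FPKM into estimated fragments, so that a short assembled transcript counts by the fragments it holds. The rule of size asked for at least 1 FPKM in the higher library, a log2 ratio of 1 or more up or down and non-overlapping intervals, by both measures, and "fell" and "rose" are used only of genes past it.

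PSPC1 itself stood at 31.5 ± 1.25 FPKM in the control and 17.7 ± 0.858 with shPSPC1, 55.6% of the control level by fragments. The epithelial markers KRT18, KRT8, KRT19, CDH1 and EPCAM were all at 1 FPKM or more, and all 5 had log2 ratios below 0, with a median of -0.34. Their part in the differences below was not tested. The lung markers NKX2-1, SFTPB, SFTPC and SFTPA1 stayed under 1 FPKM, with sums of 0.0718 and 0.102. Of 7 leukocyte markers only CD14 reached 1 FPKM (2.07 in the control and 1.89 with shPSPC1), CD3E was listed at 0, and the sums were 2.70 and 2.81 FPKM. None of 7 fibroblast and endothelial markers reached 1 FPKM, and their sums were 0.476 and 0.340.

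IL6 and CSF2 fell past the rule, and no member rose. Among the 9 members at 1 FPKM or more in either library, 8 had a ratio below 0 (7 by fragments, where IL6ST lay above 0), and the median was -0.42 beside 0.01 over the 11448 genes at that level. The rule called 1.28% of those genes lower and 1.05% higher, and 49.1% of them had a ratio below 0 and 50.9% above. By summed FPKM alone it called 1.95% lower and 1.62% higher, and by fragments alone 1.82% lower and 1.53% higher, and IL6 and CSF2 were again the members called. Intervals lay apart in the lower direction for 7 members (IL6, LIF, IL11, CSF2, IL1A, IL1B and IL32) and in the higher direction for none, beside 19.4% lower and 19.5% higher over 17431 genes above 0 in either library. In bulk RNA, fewer cells that express a gene and less RNA per cell cannot be told apart.

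**Figure D1:**
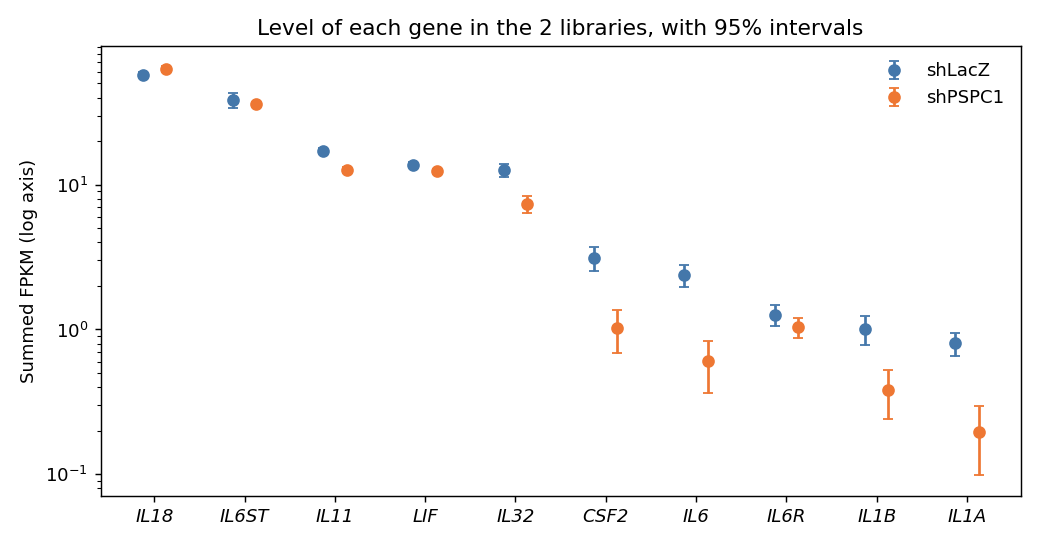
Summed FPKM (log axis) of the 10 genes in the shLacZ (blue) and shPSPC1 (orange) libraries, with bars for 95% intervals. The orange points of IL6, CSF2, IL1A and IL1B lie clear below the blue ones, and those of IL18, IL6ST and IL6R overlap them in their intervals.

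In the control the order of levels per length ran from IL18 (57.6 FPKM) through IL6ST (38.6), IL11 (17.2), LIF (13.8), IL32 (12.6), CSF2 (3.14), IL6 (2.39), IL6R (1.26) and IL1B (1.01) to IL1A (0.804). Intervals overlapped between LIF and IL32, between CSF2 and IL6, and between neighbours from IL6R to IL1A. With shPSPC1, IL18 and IL6ST still stood highest, IL11 and LIF overlapped, and the intervals of neighbours from IL6R through CSF2, IL6 and IL1B to IL1A overlapped. IL6R was below CSF2 and IL6 in the control, and with shPSPC1 the 3 genes stood at 1.04, 1.03 and 0.601 FPKM with overlapping neighbours.

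Among the gp130 ligands, IL6 fell and IL11 and LIF stayed within the 2-fold limit. IL6, the main inducer of the acute-phase response, stood at 2.39 ± 0.410 FPKM in the control and 0.601 ± 0.238 with shPSPC1, and the intervals did not overlap. The log2 ratio was -1.08, with bounds of -1.48 and -0.70 from the intervals, and -1.07 by fragments. The gene lies on the plus strand of chromosome 7, from 22766766 to 22771621 in the files' own coordinates. Its 137 estimated fragments in the control and 36 with shPSPC1 put it at 25.6% of the control level, with an exact binomial (Clopper-Pearson) interval of 17.4% to 37.7% that covers counting error only. In the control all counted IL6 signal was in the 5-exon RefSeq transcript, and with shPSPC1 that transcript held 68.6% (0.412 FPKM) and an assembled 4-exon transcript the other 31.4% (0.189 FPKM). An assembled piece without a strand, at 0.300 FPKM with shPSPC1, is not counted. With that piece alone added, IL6 would lie within the limit of 1.

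IL11, a cytokine known for fibrosis and platelet formation, was listed at 17.2 ± 0.743 FPKM in the control and 12.6 ± 0.632 with shPSPC1, and the intervals lay apart. Its log2 ratio was -0.42 by both measures, and its 2145 and 1598 fragments gave 73.4% of the control level (68.8% to 78.4%). All of it came from one 5-exon RefSeq transcript (chromosome 19, minus strand, 55875750 to 55881831). LIF, which holds stem cells undifferentiated in mouse culture, stood at 13.8 ± 0.605 and 12.4 ± 0.559 FPKM, and the intervals were apart by a small margin. Its log2 ratio was -0.14 by both measures, from 3138 and 2870 fragments (90.1%, interval 85.6% to 94.8%).

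The LIF signal was divided between 2 kinds of transcript. The gene is annotated at chromosome 22, minus strand, 30636436 to 30642840, with 3 exons in the RefSeq transcript, which stood at 6.88 FPKM in the control and 5.68 with shPSPC1. A 4-exon assembled chain whose introns were identical between the files stood at 6.89 and 6.69 FPKM. Its first exon lies 11140 bases upstream of the annotated start in the control file and 11124 in the knockdown file, joined by an intron of 10528 bases. The upstream exon was thus present in both libraries.

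The summed levels of both IL-6 receptor genes had overlapping intervals, while the listed transcripts differed between the files. IL6R, the alpha receptor on chromosome 1 (plus strand, 154377669 to 154441926), stood at 1.26 ± 0.206 FPKM in the control and 1.04 ± 0.160 with shPSPC1, with overlapping intervals, and its log2 ratio was -0.15 (-0.06 by fragments, and 0.15 with assembled transcripts that lie mainly in its exons also counted). The 10-exon transcript of the membrane form was at 0.456 and 1.04 FPKM. The 9-exon transcript, which lacks an exon of 94 bases (154426964 to 154427057) in the part that encodes the membrane anchor, was at 0.215 FPKM in the control and listed at 0 with shPSPC1. An assembled 5-exon transcript held another 0.592 FPKM in the control only, 46.9% of the IL6R signal there, and no such chain was in the knockdown file. The membrane and 9-exon forms therefore cannot be compared between the files.

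IL6ST, the shared signal-transducing subunit gp130, was the second most abundant of the 10 genes, at 38.6 ± 4.57 FPKM in the control and 36.3 ± 0.948 with shPSPC1. The intervals overlapped, and the log2 ratio was -0.08 by FPKM and 0.04 by fragments. The 15370 and 16099 fragments of IL6ST gave 103.1% of the control level (exact binomial interval 100.8% to 105.4%). Its position is chromosome 5, minus strand, 55230923 to 55290821. In the control the signal was in an assembled 17-exon chain (24.4 FPKM) and a 16-exon chain (14.2 FPKM) whose introns are those of the RefSeq form without the 83-base exon at 55253037 to 55253119. With shPSPC1 it was in the 17-exon RefSeq transcript (23.1 FPKM) and an assembled 8-exon transcript (13.2 FPKM). The 2 files share too few of these chains for the forms to be compared, and only the sum was. With RefSeq transcripts only, which for this gene are all listed at 0 in the control, the ratio was 4.59, and that setting called 4.7% of genes lower and 4.76% higher. With the most abundant transcript alone it was -4.67, where 4.75% of genes were lower and 4.99% higher.

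CSF2 fell from 3.14 ± 0.598 to 1.03 ± 0.343 FPKM, and the 2 intervals did not overlap. Its log2 ratio was -1.03 by both measures (bounds -1.49 and -0.58), and its 110 and 36 estimated fragments gave 32.8% of the control level (exact binomial interval 21.6% to 47.6%). The value in both libraries came from one 4-exon RefSeq transcript on the plus strand of chromosome 5, from 131409485 to 131411863. No assembled chain enters it. An assembled piece on the gene's strand held another 10.6 estimated fragments in the knockdown library only. It is not counted here. Its 0.414 FPKM, added to the 1.03 counted, would leave CSF2 within the limit of 1, so CSF2 passed only with it left out. The setting that adds assembled transcripts lying mainly in the gene's exons did not take it in, and the ratio there stayed at -1.03. With 110 and 36 fragments the measured ratio lay close to the limit of the rule, and its bounds reached to -0.58.

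Of the IL-1 family ligands, IL1A and IL1B were lower with intervals apart, and the intervals of IL18 overlapped. IL1A, whose protein is active as a precursor, stood at 0.804 ± 0.144 FPKM in the control and 0.197 ± 0.0986 with shPSPC1, with intervals apart. It did not pass the rule, being under 1 FPKM in both libraries. Its log2 ratio of -0.59 (-0.68 by fragments) was also within the limit of 1. Its fragments were 125 and 20, which is 15.8% of the control level (9.31% to 25.4%). With shPSPC1, 82.5% of that FPKM was in an assembled 3-exon transcript (0.163 FPKM) and 0.0345 in the 7-exon RefSeq transcript that held all of the control signal. IL1B, which needs cleavage to act, stood at 1.01 ± 0.232 and 0.381 ± 0.141 FPKM, with intervals apart, a log2 ratio of -0.54 and 76 and 29 fragments (37.6%, interval 23.7% to 58.4%). Both genes are on chromosome 2 and its minus strand, IL1A from 113531492 to 113542971 and IL1B from 113587337 to 113594356. With a pseudocount of 0.1 FPKM alone IL1B passed, under a rule that called 1.88% of 11448 genes lower and 1.53% higher. With a pseudocount of 0.1 FPKM and no minimum, both IL1A and IL1B passed, under a rule that called 2.24% of 17431 genes lower and 1.94% higher.

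IL18, an inducer of interferon gamma, was the most abundant of the 10 genes and had the only ratio above 0, at 57.6 ± 2.45 FPKM in the control and 62.8 ± 2.82 with shPSPC1. The intervals overlapped, and the log2 ratio was 0.12, and 0.06 by fragments (3168 and 3340). Its position is chromosome 11, minus strand, 112013974 to 112034840. The 5-exon RefSeq transcript stood at 38.0 FPKM in the control and 19.9 with shPSPC1, and the 6-exon one, which has 1 more exon of 12 bases, at 19.6 and 15.7. An assembled 5-exon transcript that begins 4849 bases inside the annotated start held 24.3 FPKM with shPSPC1 only, and a 3-exon one held 2.88. With RefSeq transcripts only, the ratio of IL18 was -0.68.

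IL32, a cytokine of lymphoid and epithelial cells outside the IL-1 family, had the third lowest log2 ratio with the pseudocount of 1 FPKM. As a percentage of control fragments, IL1A (15.8%) and IL1B (37.6%) also stood lower than IL32. It stood at 12.6 ± 1.24 FPKM in the control and 7.36 ± 1.01 with shPSPC1, with intervals apart, a log2 ratio of -0.70 (bounds -1.02 and -0.40) and -0.74 by fragments. Its 602 and 341 fragments gave 55.9% of the control level (48.8% to 64.0%), within the 2-fold limit. At a limit of 1.5-fold IL32 passed by both measures, as did 3.42% of genes lower and 2.2% higher. The gene lies on the plus strand of chromosome 16, from 3115313 to 3119668, with 8 RefSeq transcripts. The 956-base transcript held most of the control signal, at 8.19 FPKM against 2.52 with shPSPC1, and the 1090-base transcript was at 2.97 and 1.18. The 897-base transcript was listed at 0 in the control and at 2.87 FPKM with shPSPC1.

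**Figure D2:**
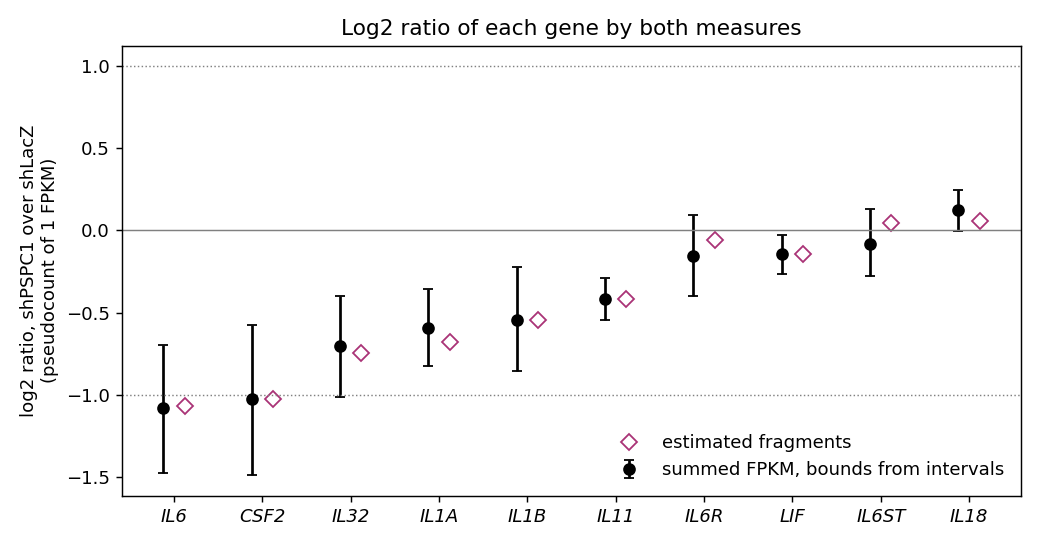
Log2 ratio, shPSPC1 over shLacZ, of the 10 genes by summed FPKM (points, with bounds from the deposited intervals) and by estimated fragments (diamonds); dotted lines mark the limit of 1. IL6 and CSF2 lie past -1 by both measures, and IL18 has the highest ratio at 0.12 (-0.68 with RefSeq transcripts only).

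**Figure D3:**
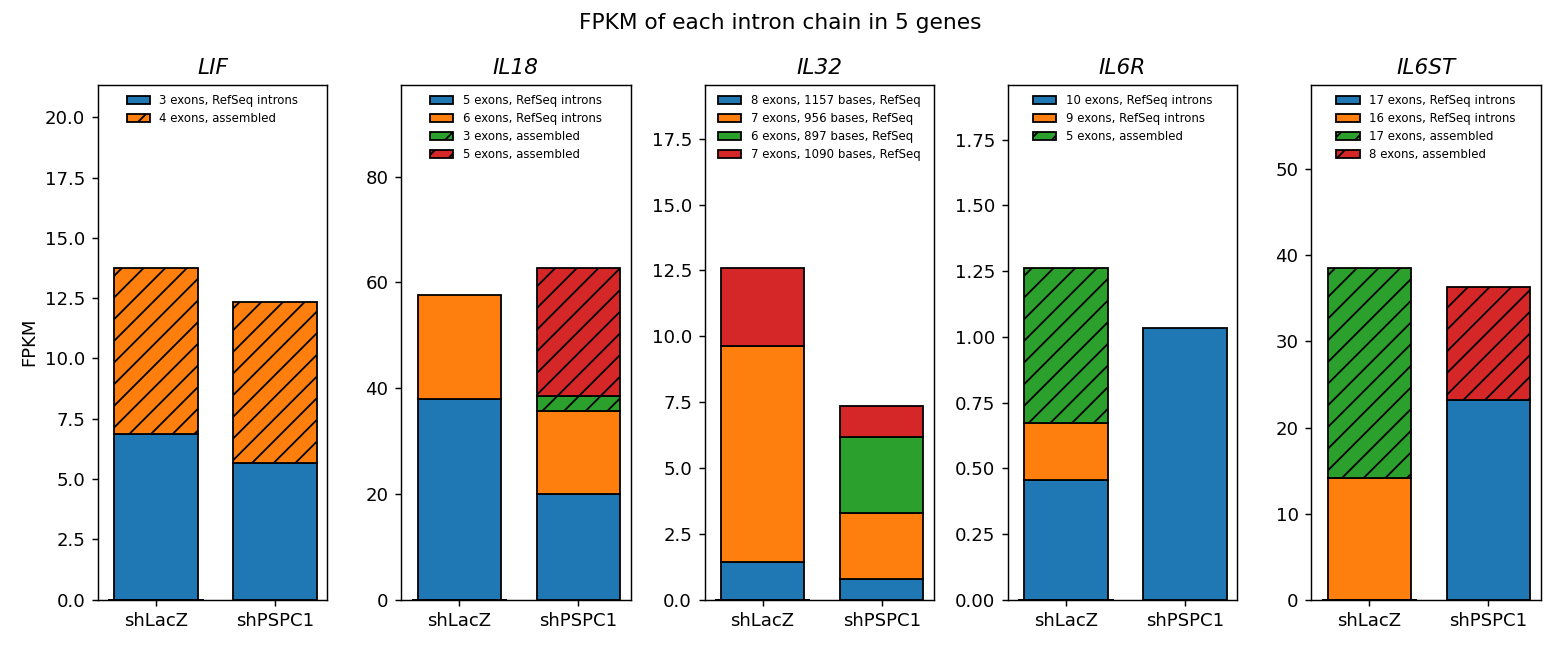
FPKM of each intron chain of LIF, IL18, IL32, IL6R and IL6ST stacked in the 2 libraries; plain bars have RefSeq introns and hatched bars are assembled chains. The LIF chains are the same in both libraries, while the IL18, IL6R and IL6ST stacks hold hatched chains that are each found in 1 library only.

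Other genes of the same pathways were taken from 8 lists. Over all lists 1 gene was lower past the rule and 2 were higher. Beside these, the rule called 1.28% lower and 1.05% higher of the 11448 genes at 1 FPKM or more. Of 15 other gp130 cytokines and receptors, 6 reached 1 FPKM in either library, with a median log2 ratio of -0.02 and 1 gene past the rule. That gene, IL11RA, the alpha receptor for IL-11, was listed at 0 in the control and at 1.52 ± 0.261 FPKM with shPSPC1. CLCF1, a gp130 cytokine, stood at 7.90 and 9.14 FPKM, the oncostatin M receptor OSMR at 10.5 and 8.57, and EBI3, a subunit of IL-27 and IL-35, at 2.46 and 1.62 FPKM.

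Of 24 genes for JAK and STAT signalling and its inhibitors, 22 reached 1 FPKM, 12 lay below 0 and the median was -0.04. The kinase JAK1 stood at 53.9 and 51.8 FPKM. SOCS6, a member of the SOCS inhibitor family, rose from 5.77 ± 0.341 to 15.1 ± 0.432 FPKM, but the control file also holds assembled transcripts of 8.21 and 2.98 FPKM in this gene that share no intron with it, and with them counted SOCS6 no longer passed. PIAS1 stood at 8.85 and 8.90 FPKM, and its fragment ratio of -1.46 rested on an assembled transcript of 33147 bases in the control only.

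Of 34 acute-phase and STAT3 target genes, 24 reached 1 FPKM, 16 of them lay below 0 and the median was -0.11. SERPINA3, an acute-phase inhibitor of serine proteases, fell from 38.0 ± 1.56 to 10.7 ± 0.820 FPKM (log2 ratio -1.74). LCN2, which binds bacterial siderophores, stood at 91.7 and 53.4 FPKM, the AP-1 subunit JUNB at 22.5 and 11.5, and the hypoxia factor HIF1A at 203 and 151 FPKM. The log2 ratio of HIF1A was -0.42 by FPKM but only -0.11 by fragments. Of 28 IL-1 family ligands, receptors and adaptors, 14 reached 1 FPKM, 11 of them below 0, with a median of -0.14 and none past the rule. The inhibitory receptor SIGIRR stood at 22.8 and 18.5 FPKM, the kinase IRAK1 at 60.5 and 60.1, and the kinase MAP3K7 at 8.28 and 6.27 FPKM.

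No gene of the remaining 4 lists passed the rule. Of 20 inflammasome and cytokine cleavage genes, 12 reached 1 FPKM, 5 lay below 0, and the median was 0.07. The inflammasome adaptor PYCARD stood at 12.5 ± 1.38 and 18.3 ± 1.64 FPKM, with intervals apart, the calpain CAPN2 at 92.5 and 71.2, and the sheddase ADAM10, one of the enzymes that can release soluble IL-6R, at 53.9 and 58.8 FPKM. Of 13 colony-stimulating factors and receptors of the GM-CSF family, 3 reached 1 FPKM and all 3 lay below 0. Among them the stem cell factor gene KITLG stood at 10.4 and 7.65 FPKM, and CSF2RA, the GM-CSF receptor alpha chain, at 8.46 and 5.78. Of 27 other interleukins and related cytokines only IL15 reached 1 FPKM, at 4.59 and 4.49. Of 22 proteins that control AU-rich cytokine mRNAs all 22 reached 1 FPKM and 10 lay below 0, with a median of 0.01. Of these, HNRNPD (AUF1) stood at 14.3 and 9.31 FPKM, AUH at 5.94 and 7.65, ILF2 at 167 and 193 and PTBP1 at 63.5 and 64.4 FPKM. The log2 ratio of ILF2 was 0.21 by FPKM and -0.02 by fragments.

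**Figure D4:**
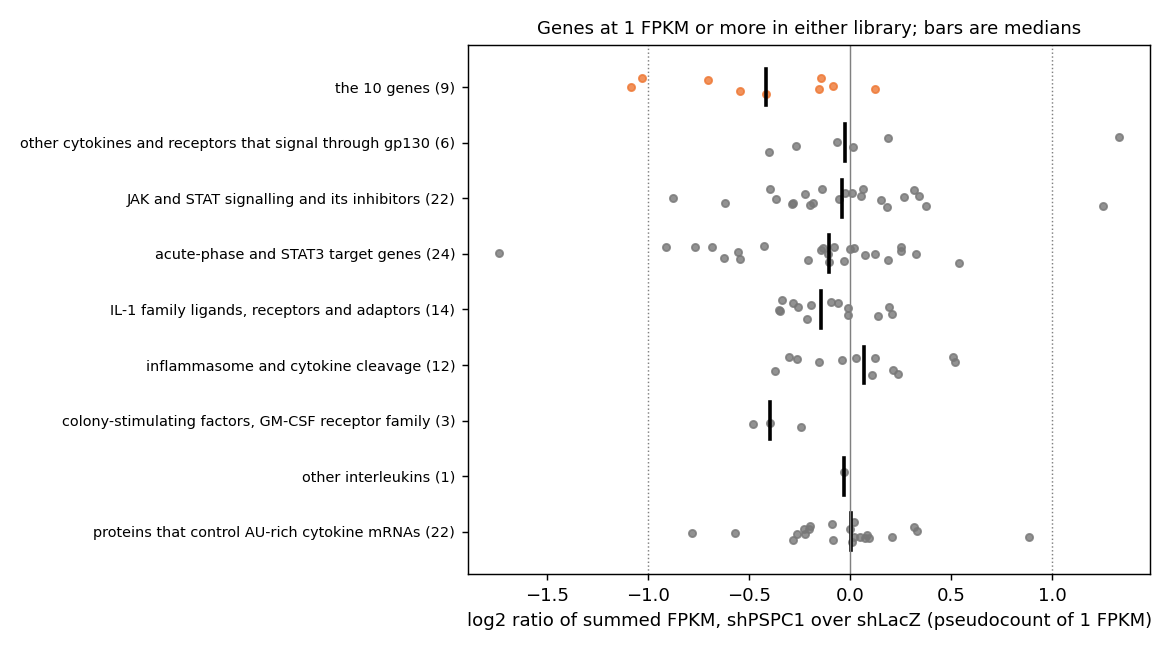
Log2 ratio of summed FPKM, shPSPC1 over shLacZ, for the genes at 1 FPKM or more in either library, with the 10 genes (9 at that level) in orange, the 8 lists in grey, medians as bars and dotted lines at the limit of 1. SERPINA3 lies at -1.74 and the medians of the lists with over 3 genes lie between -0.14 and 0.07.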

How the data were processed

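RNA of 1 shLacZ and 1 shPSPC1 library was extracted with Trizol, per the labels' protocols. Tools listed in the submitters' processing notes are Cufflinks 2.1.1, TopHat2 2.0.7 and CASAVA 1.8.2. FPKM, its interval bounds and coverage are the authors' values in the deposited transcript files, as the attribute names say. The control file holds 83113 transcripts and the knockdown file 90355. Genome build, strand protocol and poly(A) selection are not given in the sources used here, and gene coordinates are as deposited.

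Transcripts were joined to genes with the RefSeq gene table by accession, and assembled stranded transcripts by a shared intron. FPKM were summed with half-widths added in quadrature. Fragments per transcript follow from its interval where it is alone at its locus, and the implied number was whole within 0.02 for 95.4% of 13605 such transcripts in the control and 95.1% of 15452 with shPSPC1. Depth and mean fragment lengths (162 and 166 bases) were read from them. FPKM times effective length, summed, gave estimated fragments, with exact Poisson or binomial intervals at 95%. Over 2000 bases, 1 FPKM stands for about 103 and 105 fragments, and 100 fragments give a half-width of 20%. These exact intervals cover counting error only, and the deposited ones cover error within 1 library. Python 3.11.15, numpy 2.4.6, scipy 1.17.1 and matplotlib 3.10.9 were used, and the code was tested on simulated data.

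With 1 library per group no test was run. The rule of size took a log2 limit of 1, a pseudocount of 1 FPKM and a minimum of 1 FPKM. Of each list, named genes are those past the rule, the 2 highest in the control and the 2 with the largest fragment ratio. A gene that this rule names and a marker are not reported here. The members, lists and rule were chosen with earlier results of these data known. Alternatives were another pseudocount, minimum, fold limit, transcript set, measure and scaling.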

Additional observations from a re-analysis of the deposited data

Results flagged for a closer look

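Assembled pieces that overlap 2 of the genes, but share no intron with them and enter no summed level above, carried signal in the knockdown library above that in the control. For CSF2, 1 such piece on the gene's strand held 10.6 estimated fragments (exact Poisson interval 5.49 to 19.7) in the knockdown library, beside 0 in the control (up to 3.69), against 36 counted CSF2 fragments there. For IL6R, 1 piece on its strand held 115 fragments (94.9 to 138) in the knockdown library, and 2 pieces without a strand held 24.9 (16.2 to 36.9) in the control. That IL6R piece on its strand is counted only in the ratio of 0.15 given with transcripts that lie mainly in the gene's exons.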

How the results depend on the processing

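No paired analysis was possible because each group has 1 library, and no leave-one-out was possible for the same reason. IL6 and CSF2 were lower past the rule under every alternative run, but none of these counted the uncounted CSF2 and IL6 pieces of the knockdown library. In the main setting, adding the CSF2 piece on its strand (0.414 FPKM) would bring CSF2 within the limit of 1. Adding only the IL6 piece without a strand (0.300 FPKM) would do the same for IL6. IL6ST passed the rule in opposite directions under 2 transcript choices given below. Depth limits IL6, CSF2, IL1A and IL1B, with 20 to 137 fragments. With a pseudocount of 0.1 FPKM the log2 ratio was -1.83 for IL6 and -1.52 for CSF2, which the construction of the log scale brings. The count of the 10 genes lower was 3 with a pseudocount of 0.1 FPKM (IL6, CSF2 and IL1B), 3 at a fold limit of 1.5 (IL6, CSF2 and IL32), 4 with the most abundant transcript alone (IL6, CSF2, IL32 and IL6ST) and 4 with a pseudocount of 0.1 FPKM and no minimum (IL6, CSF2, IL1A and IL1B; 2.24% of all genes lower), an alternative chosen after seeing the data. With RefSeq transcripts only, 1 of the 10 genes was higher, IL6ST. The lists' lower count of 1 was 5 with RefSeq transcripts only (4.7% of all genes lower) and 5 with the most abundant transcript alone (4.75%). It was 2 with estimated fragments (1.82%), 6 at a fold limit of 1.5 (3.42%) and 2 with the pseudocount of 0.1 FPKM and no minimum (2.24%). With shared chains it was 3, and no share over all genes was computed there. Their higher count of 2 was 7 with RefSeq transcripts only (4.76% of all genes higher) and 5 with the most abundant transcript alone (4.99%). It was 1 with the assembled transcripts that lie mainly in the gene's exons, where no share over all genes was computed. The cause was not tested. Over the transcript choices, the reported sum included, the ratio ran from -4.67 to 4.59 for IL6ST, -0.90 to 0.12 for IL18 and -0.15 to 0.48 for IL6R.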

Other observations

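Values that enter no summed level above were these. In the control file, 2 pieces in the IL18 region, 1 on the other strand and 1 without a strand, held 927 estimated fragments (868 to 989), and no such piece was in the knockdown file (up to 3.69). For IL6, a piece on the other strand held 42.6 fragments (31.1 to 57.9) in the control, and a piece without a strand held 10.3 (4.80 to 18.4) in the knockdown library.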
